A study of Mus musculus with 9 samples.

Results

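The genes described here encode the proteins of the cytosolic ribosome. They were taken from the deposited count table by name: protein-coding genes called Rpl or Rps with a number, Rplp0 to Rplp2, or Rpsa, without the ribosomal S6 kinases and without pseudogenes, and with at least 10 counts in at least 3 of the 9 libraries. Of 54697 genes in the table, 86 met the name rule and 83 met the count rule. They comprise 46 genes of the large subunit, 31 of the small subunit, 5 paralogues or copies (Rpl7l1, Rpl22l1, Rpl36al, Rps27l and Rps27rt) and Rps19bp1, which carries the name but encodes a binding partner of a ribosomal protein and not a ribosomal protein. The 3 genes left out were Rpl3l, with 0 to 4 counts per library, and Rpl10l and Rpl39l, with no count in any library. The lowest of those kept were Rpl36al, with 8 to 23 counts per library, and Rpl29, with 5 to 26.

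The cells were C2C12, an established mouse myoblast line labelled wild type, which can form muscle fibres in culture. The groups were cells given 750 µM butyrate for 48 h, cells given 750 µM pentanoate for 48 h, and control cells, all labelled day 2, with 3 libraries numbered 1 to 3 in each group. The treatment of the controls was not given in the sources used here. The series title names effects of both acids on muscle formation as the subject, and pentanoate has a longer carbon chain than butyrate. No label states that replicate libraries were grown as separate cultures. The p-values therefore describe only how far these libraries spread, and that spread may be technical.

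A ribosome needs its proteins in nearly equal numbers, and the genes for them lie scattered over the genome. Many vertebrate ribosomal protein mRNAs start with a run of pyrimidines, the 5′ terminal oligopyrimidine (TOP) tract, through which mTORC1 and the RNA-binding protein LARP1 control their translation. Proteins made in excess are degraded, and Rpl5 and Rpl11, bound to 5S rRNA, can hold back Mdm2, the ligase that marks p53 for destruction. In muscle cells, ribosome number sets much of the capacity to build protein during growth.

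The 83 genes lay on 19 chromosomes, with 14 of them on chromosome 7. RefSeq promoter entries (GRCm38.p6) were found for 63 of the 83. In the 30 bases from 10 before to 20 after a RefSeq start, 24 of the 63 (38.1%) held a run of at least 8 pyrimidines, against 13.01% of 27025 genes. The 7 letters CCGGAAG, a core of the site for ETS family factors, occurred on either strand within the 300 bases around the start in 25 of the 63 (39.7%), against 9.93% of all genes. A match is a description of the letters and not a measured site. Windows of some of the genes named below are shown, read 5′ to 3′ on the gene's strand in GRCm38.p6. A pyrimidine run of 8 or more is in capitals.
Rps12, small subunit, chr10:23787190-23787219, minus strand: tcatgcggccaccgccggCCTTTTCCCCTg
Rps27, small subunit, chr3:90213629-90213658, minus strand: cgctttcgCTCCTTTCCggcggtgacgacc
Rps27rt, copy of Rps27, chr9:114982720-114982749, minus strand: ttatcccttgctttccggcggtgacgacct
Rps24, small subunit, chr14:24490668-24490697, plus strand: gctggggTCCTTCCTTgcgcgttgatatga
Rplp2, P stalk, chr7:141447641-141447670, plus strand: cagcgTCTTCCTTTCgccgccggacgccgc
Rpl38, large subunit, chr11:114668570-114668599, plus strand: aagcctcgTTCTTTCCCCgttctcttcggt
Rplp0, P stalk, chr5:115559457-115559486, plus strand: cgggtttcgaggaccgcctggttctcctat
Rps2, small subunit, chr17:24720053-24720082, plus strand: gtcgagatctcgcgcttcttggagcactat
Rps27l, paralogue of Rps27, chr9:66946076-66946105, plus strand: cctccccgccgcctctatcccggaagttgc

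The windows of Rps12, Rps27, Rps24, Rplp2 and Rpl38 held such a run, and those of Rplp0, Rps2, Rps27l and Rps27rt did not reach 8. Rps24 and Rps27l also have another RefSeq start, where the longest run was 7 and 4. Of the 8 genes given below as called under several fits, Rpl4, Rpl37a and Rps21 are not shown. Their longest runs were 6, 3 and 7, with 4 at the other start of Rps21. The window of Rps27rt shared an unbroken run of 19 of 30 bases with that of Rps27. Rps27l, the other relative, shared 13.7% of its 50-base words with any other gene's transcripts, and Rps27 63.1%.

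Libraries held 15829262 to 19305981 counts. The 83 genes were all among the 14066 tested. Levels are CPM, counts scaled to the size of the library with TMM factors, and changes are fitted log2 values. Control 3 stood apart: mitochondrial transcripts took 3.95% of its counts, 2.32% in control 1 and 1.97% in control 2. The treated libraries had 1.79% to 2.28%. Among the ribosomal protein genes, the log2 ratio of control 3 to the mean of controls 1 and 2 had an SD of 0.46, against 0.27 between controls 1 and 2, and 25 of the 83 genes were more than 0.5 lower in control 3. Rpl11 is an example, with 156 CPM in control 3 and 386 and 407 CPM in controls 1 and 2. Over all genes averaging at least 50 CPM, this ratio ran with GC content at a Spearman's rho of -0.77 (4626 genes), while over the 73 ribosomal protein genes of that level rho was -0.19. The 5 fibroblast and mesenchymal markers summed to 5901 to 7572 CPM with butyrate, 6964 to 9576 CPM with pentanoate and 7263 to 8460 CPM in control cells. The 6 myoblast markers summed to 1073 to 1343 CPM with butyrate, 1134 to 1454 CPM with pentanoate and 858 to 1359 CPM in control cells. By edgeR's quasi-likelihood test Myod1, which drives muscle commitment, was lower with butyrate than in control cells (change -0.89, adjusted p = 0.00828) and higher with pentanoate than with butyrate (0.82, adjusted p = 0.0304). Leaving out butyrate 2 or 3, control 1 or any pentanoate library ended the second call, with adjusted p-values up to 0.134 without butyrate 2. Myf5, another regulator of that step, was higher with butyrate than in control cells by the same test (0.57, adjusted p = 0.0279), a call that ended without any 1 butyrate library or control 1 or 2, with adjusted p-values up to 0.0940 without butyrate 3. The 6 differentiated muscle markers summed to 3.87 to 5.66 CPM with butyrate, 16.8 to 24.2 CPM with pentanoate and 17.4 to 30.4 CPM in control cells, and by edgeR's quasi-likelihood test 4 of the 5 tested were called lower for butyrate against control and 2 higher for pentanoate against butyrate. Their part in these results was not tested. Blood markers summed to 5.48 to 6.10 CPM with butyrate, 1.76 to 1.94 CPM with pentanoate and 1.01 to 1.88 CPM in control cells, and neuronal markers to 5.30 to 7.62 CPM with butyrate, 3.89 to 5.17 CPM with pentanoate and 2.84 to 3.81 CPM in control cells. Adipocyte markers summed to 0.655 to 1.84 CPM with butyrate, 0.330 to 0.998 CPM with pentanoate and 0.111 to 0.190 CPM in control cells, and the part of these lists was not tested either.

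Per kilobase of deposited gene length, the genes ran from 0.680 CPM (Rpl36al) to 1788 CPM (Rplp1), with a median of 180.1 CPM averaged over the 9 libraries. Rplp0 (1182 CPM per kilobase), Rpl8 (915), Rpl36 (795) and Rps15 (740.4) followed Rplp1. Rplp0 and Rplp1 belong to the P stalk, which recruits elongation factors to the large subunit. Rpl29 came just above Rpl36al, at 0.833 CPM per kilobase, and both rest on under 30 counts in each library. In 36 genes the highest library was under 1.5-fold the lowest, and in 21 it was over 2-fold.

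**Figure D1:**
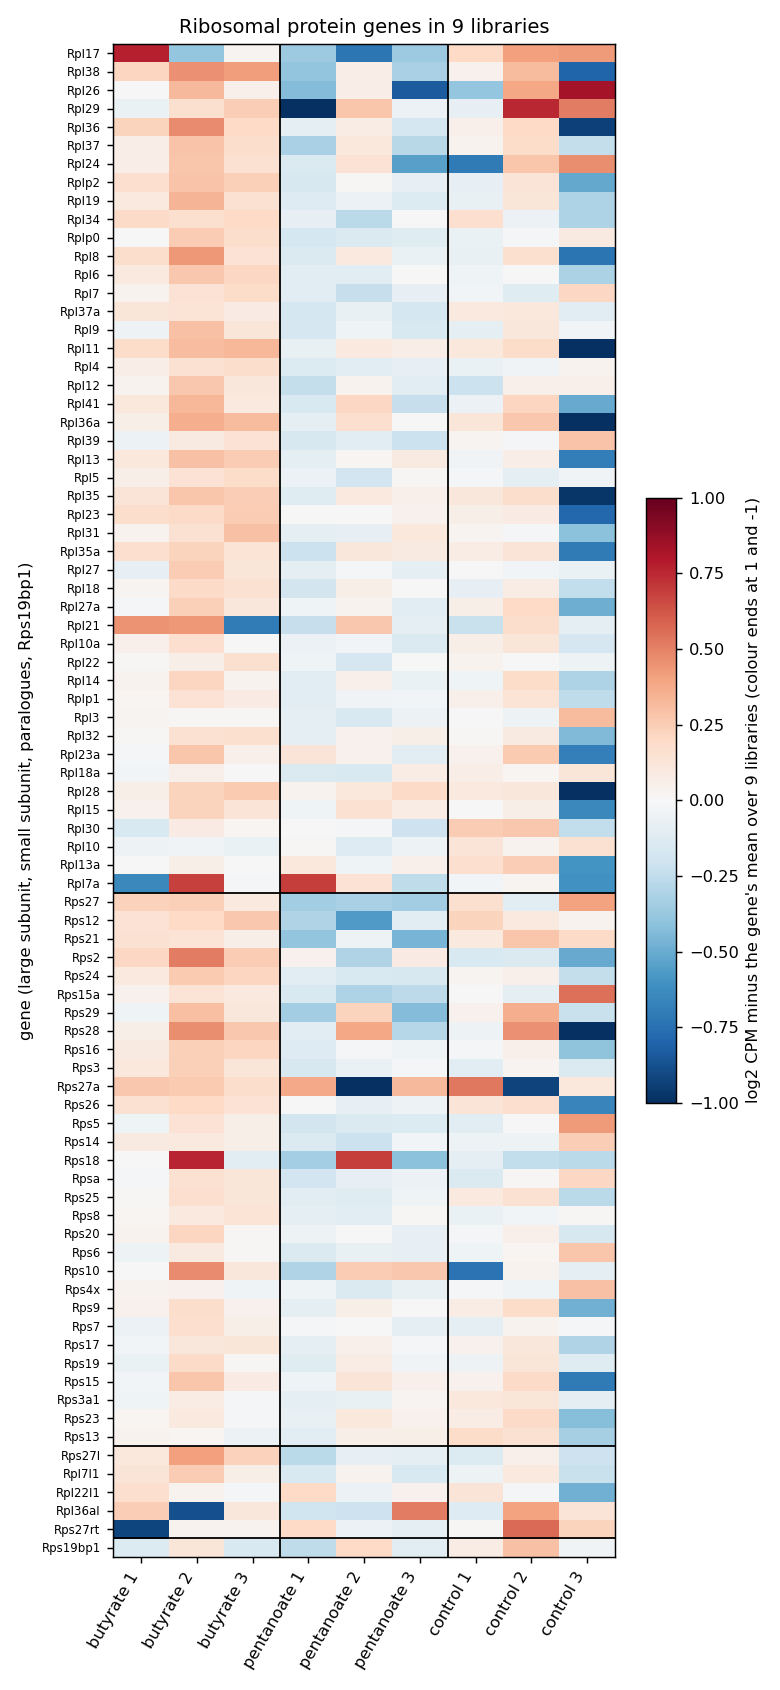
Log2 CPM of 82 of the 83 genes in the 9 libraries as the difference from each gene's mean, with rows grouped by subunit and colours capped at 1 and -1. Pentanoate columns are mostly blue, butyrate columns mostly red, and control 3 differs from controls 1 and 2 in many genes.

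Summed over the 83 genes, ribosomal protein mRNA took the largest share of counts in butyrate-treated cells. The share was 3.52%, 3.86% and 3.72% in butyrate libraries 1 to 3, 3.12%, 3.23% and 3.24% in pentanoate libraries, and 3.33%, 3.48% and 2.97% in control libraries. All 3 butyrate libraries lay above all the others, and pentanoate and control libraries overlapped. Group means were 3.70% ± 0.170 with butyrate, 3.20% ± 0.0657 with pentanoate and 3.26% ± 0.261 in control cells (SD, n = 3 each). The ratio of means was 1.14 for butyrate over control, 0.980 for pentanoate over control and 0.864 for pentanoate over butyrate, with no test because the genes were chosen. The large subunit's share was 2.34% ± 0.115 with butyrate, 2.00% ± 0.0470 with pentanoate and 2.01% ± 0.217 in control cells (SD, n = 3 each). The small subunit's was 1.32% ± 0.0517 with butyrate, 1.16% ± 0.0251 with pentanoate and 1.21% ± 0.0396 in control cells (SD, n = 3 each), so the order butyrate above control held in both subunits. In these bulk libraries more mRNA of these genes per cell and less of the other mRNAs cannot be told apart, nor can a change in the mix of cells from a change per cell.

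**Figure D2:**
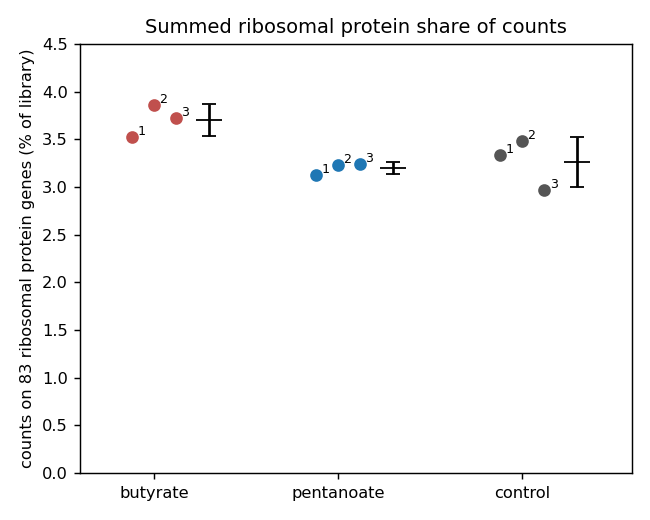
Share of each library's counts on the 83 genes in percent, with points numbered by replicate and bars giving the mean and SD of 3 libraries. The butyrate libraries sit between 3.52% and 3.86%, above the highest control at 3.48%, and control 3 is the lowest of all.

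Butyrate against control addressed what the shorter acid did to these mRNAs. The fitted change was above 0 for 65 of 83 genes (46.8% of all genes tested) and below 0 for 18 (53.2%), with a median of 0.14, while over all genes tested the median was -0.02. Rps2 was the 1 gene called higher by edgeR's quasi-likelihood test at a Benjamini-Hochberg adjusted p under 0.05, and 0 were called lower; over all genes tested, 6.43% were called higher and 4.95% lower. At an unadjusted p under 0.05, 11 of the 83 were higher (12.5% of all genes tested) and 0 were lower (13.5%). The butyrate libraries all lay above the controls in 14 genes (14.1% of all genes did) and all below in 1, Rpl10 (14.9% of all genes). With the replicate number as a block, 7 genes passed (Rpl6, Rpl8, Rpl19, Rplp2, Rps2, Rps3 and Rps27l), all higher, and over all genes tested 10.8% were called higher with it.

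Rps2 (ENSMUSG00000044533, chr17:24718116-24721929 in the deposited GRCm38 coordinates) encodes a protein of the small subunit near the mRNA entry channel. Its level was 48.3, 59.6 and 49.8 CPM with butyrate and 37.7, 37.8 and 29.5 CPM in control cells. No butyrate library reached down to the controls. The change was 0.59 (SE 0.14), with an adjusted p of 0.0223 by edgeR's quasi-likelihood test. Without butyrate 2 the adjusted p was 0.106 and without butyrate 3 it was 0.0567, and over all alternatives it ran from 0.00210 to 0.106. This row holds few of the reads of its sequence, as described further on.

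Rps27l encodes a close relative of Rps27 and is known as a p53 target. It had 114, 140.2 and 124 CPM with butyrate and 96.2, 109.6 and 91.6 CPM in control cells. The groups did not overlap, although butyrate 1 and control 2 lay close together. The change of 0.34 (SE 0.11) had an adjusted p of 0.0655 and, with the replicate block, of 0.0115 by edgeR's quasi-likelihood test. Among 6 genes of the 5S RNP and p53 axis, Cdkn1a (change 0.77, SE 0.19, adjusted p = 0.0277) and Mdm2 (0.49, SE 0.10, adjusted p = 0.0108) rose by edgeR's quasi-likelihood test. Cdkn1a, a p53 target and inhibitor of the cell cycle, averaged 256 ± 54.0 CPM with butyrate and 150.2 ± 36.9 CPM in control cells (SD, n = 3 each). Without butyrate 2 the adjusted p was 0.125 for Cdkn1a and 0.0534 for Mdm2, and without butyrate 1 it was 0.0583 for Cdkn1a (edgeR's quasi-likelihood test). Rpl11, which binds 5S rRNA, had 406, 444 and 451 CPM with butyrate, against 386, 407 and 156 CPM in control cells, and control 2 reached just past the lowest butyrate library. Rpl11's change was 0.46 (SE 0.27, adjusted p = 0.325 by edgeR's quasi-likelihood test). Without control 3 it was 0.14, and with other single libraries left out it reached 0.68.

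Control 3 also moved Rpl8 and Rplp2. Rpl8, next to the peptidyl transferase centre, had 1377, 1644 and 1349.8 CPM with butyrate and 1158, 1359.8 and 735 CPM in control cells. Only control 2 reached the butyrate range. Its change was 0.43 (SE 0.19, adjusted p = 0.179 by edgeR's quasi-likelihood test), and with the replicate block the adjusted p was 0.0396. Without control 3 the change was 0.22. Rplp2 of the P stalk had 328, 357 and 345 CPM with butyrate and 276, 319 and 205 CPM in control cells, with no overlap. Its change was 0.36 (SE 0.14, adjusted p = 0.121) and the block gave an adjusted p of 0.0406, both by edgeR's quasi-likelihood test. It too was 0.22 without control 3. Without control 3 the median over the 83 genes was 0.09 and 63 were above 0.

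Pentanoate against control gave a smaller difference. The fitted change was below 0 for 50 of 83 genes (51.6% of all genes tested) and above 0 for 33 (48.4%), with a median of -0.03, against -0.01 over all genes tested. No gene of the 83 was called by edgeR's quasi-likelihood test in either direction; over all genes tested, 0.782% were called higher and 0.0213% lower. At an unadjusted p under 0.05, 7 were lower (5.95% of all genes tested) and 0 higher (7.78%). DESeq2 called 4 lower (Rpl17, Rps12, Rps21 and Rps27), and 0.37% of all genes. The pentanoate libraries all lay below the controls in 12 genes (9.12% of all genes did) and all above in 0 (9.38%). The replicate block gave 3 lower calls, Rps12, Rps21 and Rps27, and called 0.647% of all genes lower.

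Control 3 moved this comparison. Without it 72 of the 83 were below 0, with a median of -0.10. By replicate number, 74 of 83 genes were lower in pentanoate 1 than in control 1 and 77 of 83 in pentanoate 2 than in control 2, but 31 of 83 in pentanoate 3 than in control 3. Without control 2 the median was 0.05 and without pentanoate 1 it was 0.0034, so its sign depends on single libraries.

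Pentanoate against butyrate, at the same dose and time, was the comparison in which the genes lay most to one side. The fitted change was below 0 for 75 of 83 genes (49.5% of all genes tested) and above 0 for 8 (50.5%), and the median was -0.20, against 0.00. The large subunit had 44 of 46 genes below 0 and a median of -0.21, and the small subunit 29 of 31 and a median of -0.20. In each pair of libraries with the same number, pentanoate was lower in 73, 78 and 70 of the 83. The pentanoate libraries all lay below the butyrate libraries in 41 genes (15.1% of all genes did) and all above in 0 (15.7%). The 8 genes above 0 included Rps27rt, Rpl36al and Rpl7a. With genes summed with rows of shared sequence, as described further on, 80 of 82 were below 0 and 2 above. The median was then -0.22, against -0.02 over all genes tested. Rpl7a's own row held 55.3% of its sum. That sum averaged 305 ± 60.7 CPM with butyrate and 294 ± 45.4 CPM with pentanoate (SD, n = 3 each).

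Few single genes passed the test. Rps12 and Rps27 fell by edgeR's quasi-likelihood test at an adjusted p under 0.05, and none was called higher; over all genes tested, 1.61% were called lower and 1.81% higher. At an unadjusted p under 0.05, 24 of the 83 were lower (8.15% of all genes tested) and 0 higher (9.32%). The count of lower calls ran from 0 without butyrate 1, 2 or 3 or pentanoate 1, and 1 without pentanoate 2 or 3, to 19 without control 3, which takes no part in the difference but does in the shared estimate of spread. It was 11 with the replicate block (Rpl4, Rpl12, Rpl19, Rpl37, Rpl37a, Rplp0, Rps12, Rps21, Rps24, Rps27 and Rps27l), 17 with only these groups in the fit and 8 with DESeq2. Over all genes, lower calls were more frequent in these fits too, at 4.56% without control 3, 4.42% with the block, 4.34% with only these groups and 3.04% with DESeq2. The genes called in all of the block, these groups alone, DESeq2 and the fit without control 3 were 8: Rpl4, Rpl37a, Rplp0, Rps12, Rps21, Rps24, Rps27 and Rps27l. How many of all genes tested were called in all of these fits was not counted.

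**Figure D3:**
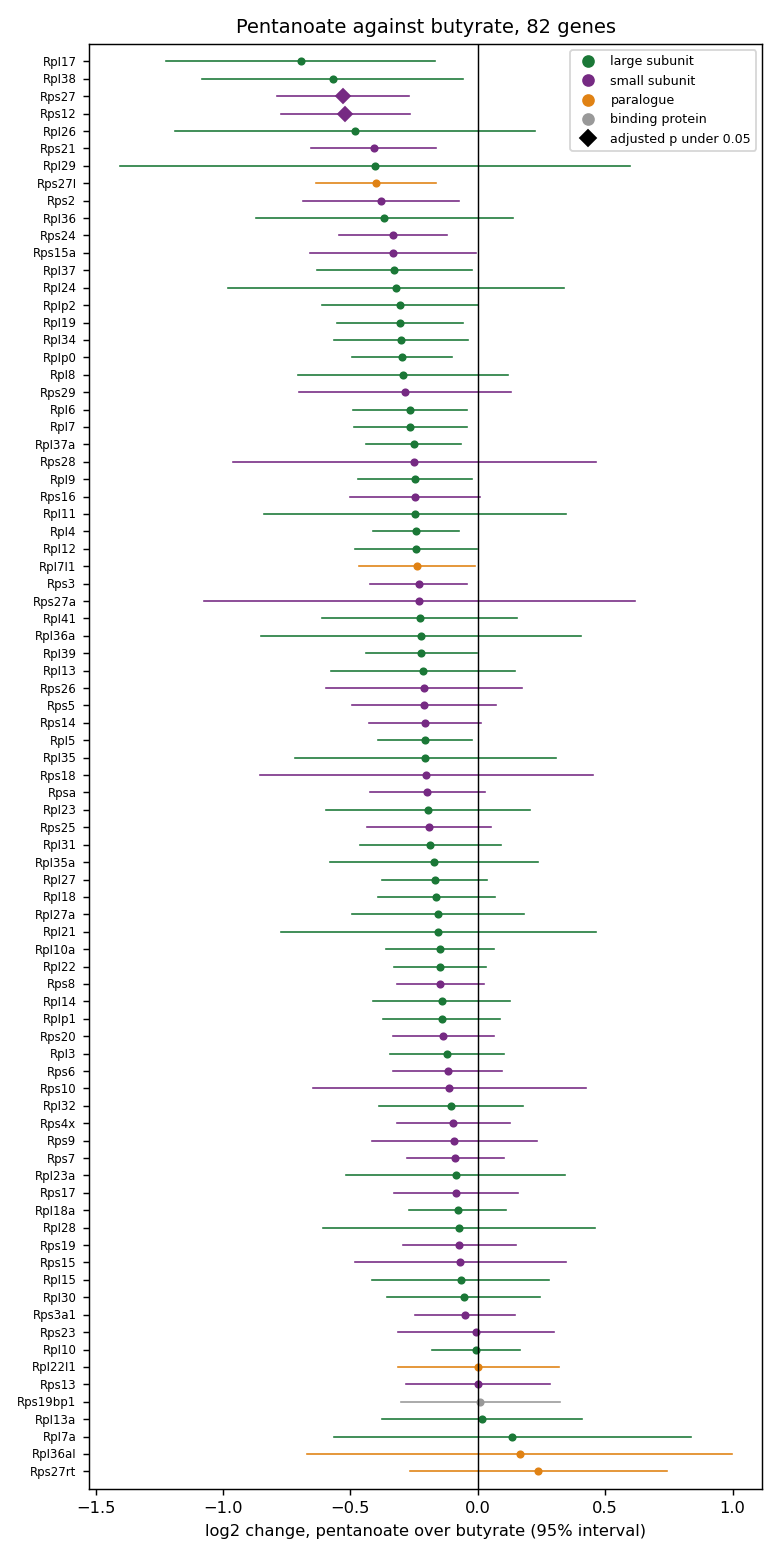
Fitted log2 change of 82 of the 83 genes for pentanoate over butyrate with its 95% interval, sorted and coloured by subunit. Of these, 75 lie left of 0, and the diamonds mark Rps12 and Rps27.

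Rps12 (ENSMUSG00000061983, chr10:23785183-23787275), a protein of the small subunit's beak, had 292, 242 and 334 CPM with pentanoate and 397, 414 and 434 CPM with butyrate, beside 419.7, 384 and 368 CPM in control cells. All 3 pentanoate libraries were below all 6 others. The change against butyrate was -0.52 (SE 0.12, adjusted p = 0.0377), and against control it was -0.43 (SE 0.12, adjusted p = 0.137), both by edgeR's quasi-likelihood test. The adjusted p against butyrate was 0.117 without pentanoate 2, 0.147 without pentanoate 1, and 0.0800, 0.127 and 0.139 without butyrate 1, 2 and 3. The block gave an adjusted p of 0.0484 against control.

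Rps27 (ENSMUSG00000090733, chr3:90212522-90213651), a zinc finger protein of the small subunit, had 112, 113 and 112 CPM with pentanoate and 167, 167 and 152 CPM with butyrate, beside 158, 132 and 187 CPM in control cells. Again all pentanoate libraries were the lowest, and they agreed closely among themselves. The change against butyrate was -0.53 (SE 0.12, adjusted p = 0.0374), and against control -0.50 (SE 0.12, adjusted p = 0.0896), both by edgeR's quasi-likelihood test. Leaving out any butyrate or pentanoate library ended the call against butyrate, with adjusted p-values of 0.113, 0.131 and 0.0795 without butyrate 1, 2 and 3 and of 0.141, 0.108 and 0.107 without pentanoate 1, 2 and 3. Against control the adjusted p was 0.0435 with the block and 0.0260 without control 2.

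The relatives of Rps27 did not lie alike. Rps27l had 87.6, 99.7 and 98.9 CPM with pentanoate, below the 114, 140.2 and 124 CPM with butyrate and level with the 96.2, 109.6 and 91.6 CPM of control cells. Its change against butyrate was -0.40 (SE 0.11, adjusted p = 0.0710, and 0.0105 with the block, by edgeR's quasi-likelihood test). Rps27rt had 70.8, 59.3 and 57.9 CPM with pentanoate and 32.8, 63.4 and 63.3 CPM with butyrate, beside 62.2, 91.7 and 71.9 CPM in control cells. Its groups overlapped, with butyrate 1 far below the rest.

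Rps21 of the small subunit had 130.1, 165 and 124 CPM with pentanoate and 189.9, 188 and 179 CPM with butyrate, beside 183, 208 and 195 CPM in control cells. Its pentanoate libraries lay below all others. The change against butyrate was -0.41 (SE 0.11, adjusted p = 0.0746, block 0.0156) and against control -0.48 (SE 0.11, adjusted p = 0.0885, block 0.0175), by edgeR's quasi-likelihood test. Rps24, whose mutation causes Diamond-Blackfan anaemia in humans, had 529, 512 and 507 CPM with pentanoate and 607, 683 and 661 CPM with butyrate, beside 579.7, 587 and 480.4 CPM in control cells. It did not overlap between the acids. Its change was -0.33 (SE 0.10, adjusted p = 0.0892, block 0.0341, by edgeR's quasi-likelihood test).

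Among the large subunit genes the P stalk lay lower with pentanoate in all 3 members. Rplp0, the stalk's base, had 1725, 1762 and 1791 CPM with pentanoate and 1962, 2322 and 2207 CPM with butyrate, beside 1865, 1938 and 2075 CPM in control cells. Its pentanoate libraries were below all 6 others. The change against butyrate was -0.30 (SE 0.09, adjusted p = 0.101, block 0.0230, by edgeR's quasi-likelihood test). For Rplp1 the change was -0.14 (95% interval -0.37 to 0.09) and for Rplp2 -0.31 (-0.61 to -0.0011), with no overlap between the acids in either. Rpl4, which lines the exit tunnel, had 1108, 1122 and 1149.9 CPM with pentanoate and 1273, 1353 and 1372 CPM with butyrate, beside 1161, 1186 and 1245 CPM in control cells. The order was pentanoate, control, butyrate with no overlap at any step. The change was -0.24 (SE 0.08, adjusted p = 0.122, block 0.0322, by edgeR's quasi-likelihood test).

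**Figure D4:**
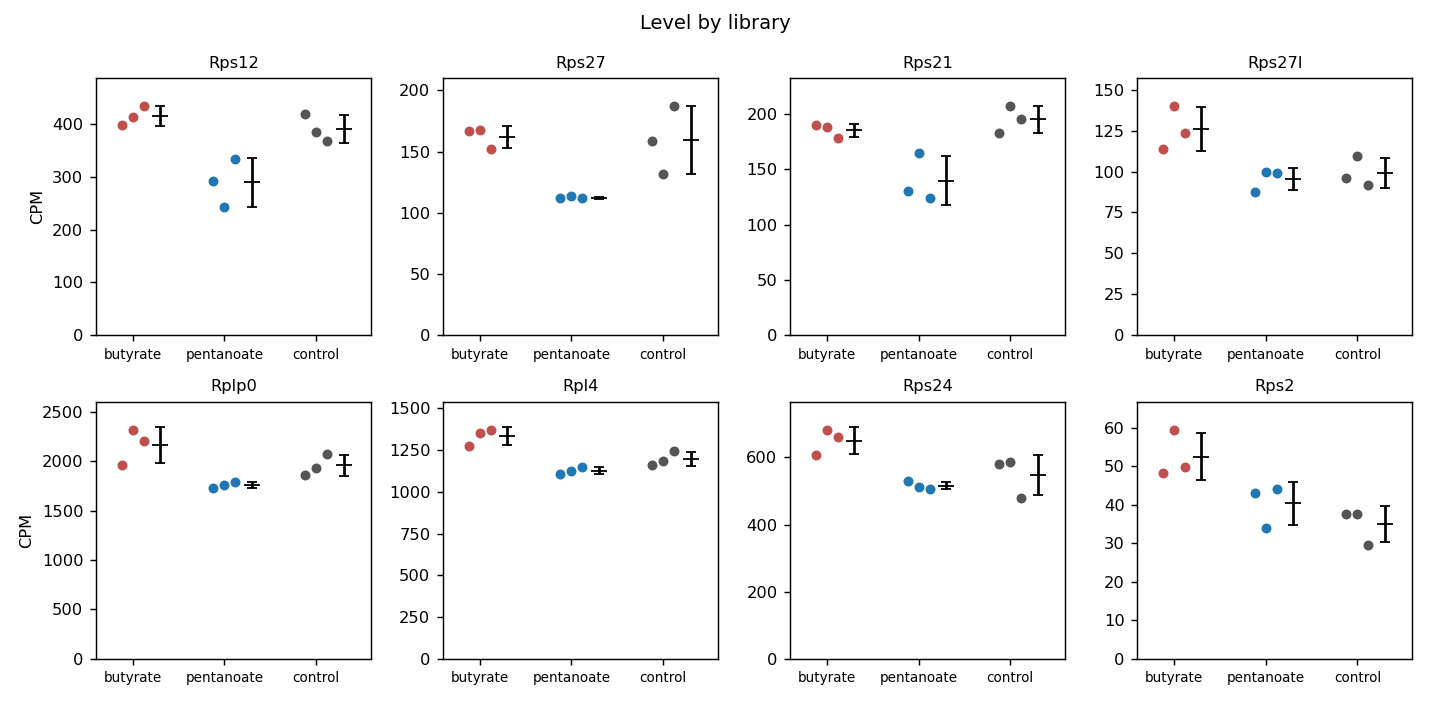
CPM of Rps12, Rps27, Rps21, Rps27l, Rplp0, Rpl4, Rps24 and Rps2 in each library, with mean and SD of 3 libraries beside the points. Pentanoate points lie below the butyrate points in all 8 panels, and for Rps2 the controls are the lowest group on average.

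The genes with known special roles described next were not called between the acids by edgeR's quasi-likelihood test. Rpl5, the partner of Rpl11 in the 5S particle, had 613, 561 and 646 CPM with pentanoate and 666, 708 and 725 CPM with butyrate, without overlap (change -0.21, SE 0.08, adjusted p = 0.227 by edgeR's quasi-likelihood test). Rpsa, which also names a laminin receptor, had 1353, 1462 and 1485 CPM with pentanoate and 1531, 1719 and 1680.1 CPM with butyrate, again without overlap (change -0.20, SE 0.10, adjusted p = 0.364 by edgeR's quasi-likelihood test). Rpl38, known from mice in which its loss alters the axial skeleton, had 65.4, 90.2 and 68.5 CPM with pentanoate and 99.7, 118 and 115 CPM with butyrate. The change of -0.57 (SE 0.23) had an adjusted p of 0.228, and of 0.0177 without control 3, whose 49.4 CPM lay far from the 88.7 and 107 CPM of controls 1 and 2 (edgeR's quasi-likelihood test). Rps6, the substrate of the S6 kinases, had 597, 626 and 624 CPM with pentanoate and 636, 704 and 664 CPM with butyrate, which did not overlap either. Rps19, the most often mutated gene in Diamond-Blackfan anaemia, had 346, 396 and 367 CPM with pentanoate and 359, 429 and 378 CPM with butyrate, which overlapped. Rps19bp1 had 25.5, 34.9 and 28.2 CPM with pentanoate and 27.7, 33.0 and 27.3 CPM with butyrate, and its groups also overlapped.

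The paralogue pairs were read on their own rows. Rpl7l1 had 127, 144 and 127 CPM with pentanoate and 154, 168 and 147 CPM with butyrate, and Rpl7 had 806, 745 and 824 CPM with pentanoate and 896, 966 and 991 CPM with butyrate. Both had their pentanoate libraries below all butyrate libraries. Rpl22l1 had 66.5, 55.6 and 59.7 CPM with pentanoate and 65.0, 59.3 and 57.3 CPM with butyrate, which overlapped, while Rpl22 had 201, 185 and 206 CPM with pentanoate and 209, 216 and 232 CPM with butyrate, which did not. Rpl22 is known to hold down Rpl22l1 in mice. Rpl36al stayed at 0.483 to 1.27 CPM in all libraries, and Rpl36a at 67.9 (control 3) to 202 CPM.

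The share of 50-base words of a member's transcripts found in another gene's transcripts was at least 25% in 64 of the 83 genes and at least 50% in 30, with a median of 41.6%. Rows sharing at least 25% of a member's words were added to it if they were pseudogenes or had names starting with Gm or Rp. This gave 55 sums with 177 added rows, not all of them pseudogenes, and joined Rps27rt to Rps27. The named gene held under 50% of its sum in 8 cases and under 10% in 5, namely Rpl26, Rpl29, Rps2, Rps10 and Rps18. Rps2 had 3.16% of its sum: Rps2-ps10 alone had 984, 1210.0 and 1010.0 CPM with butyrate and 711, 934 and 673 CPM in control cells. The sum for Rps2 was 1487, 1813 and 1531 CPM with butyrate and 1068, 1398 and 843 CPM in control cells. It did not overlap, and its change was 0.55 (SE 0.16, adjusted p = 0.0575, block 0.00326, by edgeR's quasi-likelihood test).

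For Rps12 the sum was 458, 426 and 444 CPM with pentanoate and 555, 685 and 605 CPM with butyrate, beside 557, 608 and 607 CPM in control cells. The sums for pentanoate lay closer together than the gene's own row and below all others. The change against butyrate was -0.47 (SE 0.09, adjusted p = 0.0235), and against control -0.42 (SE 0.09, adjusted p = 0.0837, block 0.0275), both by edgeR's quasi-likelihood test. For Rps27 the sum, which takes in Rps27rt, gave a change against butyrate of -0.32 (SE 0.09, adjusted p = 0.0872, block 0.0410, by edgeR's quasi-likelihood test).

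For Rpl17 and Rpl17-ps10, the counts divided unevenly between the rows in butyrate 1. Its own row had 125, 98.3 and 126 CPM with pentanoate and 278, 123 and 165 CPM with butyrate, beside 186, 215 and 218 CPM in control cells. Rpl17-ps10 had 222, 248 and 217 CPM with pentanoate and 95.5, 287 and 241 CPM with butyrate, so butyrate 1 was high in the gene and low in the copy. Their sum, with Rpl17-ps3 and smaller rows, lay between 488 and 661 CPM in all 9 libraries, and the change against butyrate was -0.18 (SE 0.10) for the sum and -0.70 (SE 0.24) for the gene alone. Against control, where DESeq2 called the gene's own row, the change was -0.21 (SE 0.10, adjusted p = 0.361) for the sum. For the gene alone it was -0.82 (SE 0.24, adjusted p = 0.174), both by edgeR's quasi-likelihood test. Rps27a, a fusion with ubiquitin, stayed uneven: pentanoate 2 and control 2 had 120.4 and 138 CPM on its own row, and the other 7 libraries 284 to 380.0 CPM. Its sum kept that gap, at 140.3 and 165 CPM against 313 to 404 CPM.

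**Figure D5:**
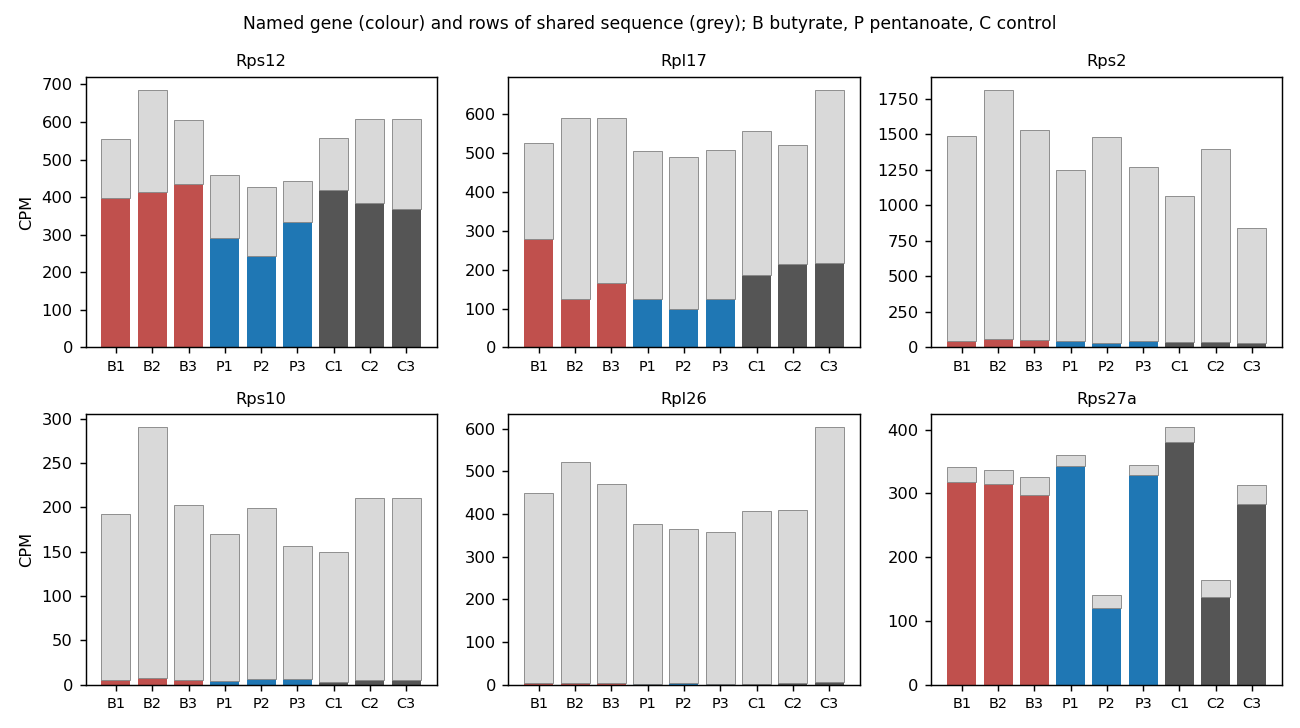
CPM of 6 genes (coloured) and of the rows added to them for shared sequence (grey) in each library. In Rps2, Rps10 and Rpl26 nearly all counts sit on the added rows, Rpl17 is high and its copies low in butyrate 1, and Rps27a is low in pentanoate 2 and control 2 with or without them.

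The other genes of the pathway gave these counts. Of 23 TOP translation factors and partners, 22 were below 0 for pentanoate against butyrate (median -0.15) and 0 were called, while 17 were above 0 for butyrate against control, where Eef1g, a subunit of elongation factor 1, rose (0.38, SE 0.11, adjusted p = 0.0499 by edgeR's quasi-likelihood test). Eef1g had 235, 251 and 262 CPM with pentanoate, 314, 369 and 333 CPM with butyrate and 261, 295 and 225 CPM in control cells. Its pentanoate libraries overlapped the controls and lay below butyrate. Leaving out any butyrate or pentanoate library or control 1 ended the call of Eef1g, with adjusted p-values up to 0.193 without butyrate 2. Of 30 ribosome assembly genes, 28 were below 0 for pentanoate against butyrate (median -0.18), with 0 called in any comparison. For pentanoate against control, 26 of the 30 were below 0 (median -0.11), as were 18 of the 23 TOP factors (median -0.09). For butyrate against control, 16 of the 30 assembly genes were below 0 (median -0.01).

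RNA polymerase I and rRNA transcription genes had 12 of 16 below 0 for pentanoate against butyrate (median -0.15), and dedicated chaperones of ribosomal proteins 5 of 11 (median 0.01), with 0 called in either list in any comparison. For pentanoate against control, 14 of the 16 (median -0.08) and 9 of the 11 (median -0.15) were below 0. For butyrate against control it was 9 of the 16 (median -0.03) and 7 of the 11 (median -0.05). Of 19 genes of mTORC1 and TOP control, 9 were below 0 for pentanoate against butyrate (median 0.03) and 0 were called. For butyrate against control, Rps6ka1, a ribosomal S6 kinase with 3.82, 6.89 and 2.29 CPM with butyrate and 1.40, 1.28 and 1.30 CPM in control cells, rose (1.70, SE 0.39, adjusted p = 0.0178 by edgeR's quasi-likelihood test). The adjusted p of Rps6ka1 was 0.0693 without butyrate 2 and 0.0562 without control 1. Tsc1, an inhibitor of mTORC1, fell (change -0.34, SE 0.09, adjusted p = 0.0327 by edgeR's quasi-likelihood test). Its call ended without butyrate 2 or 3, control 1 or 2 or any pentanoate library, with adjusted p-values up to 0.152 without butyrate 3. Small nucleolar RNA host genes had 7 of 8 below 0 for pentanoate against butyrate (median -0.12), with 0 called. In the 5S RNP and p53 axis, Mdm2 fell with pentanoate against butyrate (change -0.62, SE 0.10, adjusted p = 0.0108 by edgeR's quasi-likelihood test). Its level was 83.9, 77.4 and 74.8 CPM with pentanoate, 122, 135 and 105 CPM with butyrate and 85.4, 87.6 and 85.1 CPM in control cells. Its butyrate libraries were above all others. The adjusted p of Mdm2 was 0.0520 without butyrate 2 and 0.0503 without pentanoate 3.

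Members with a pyrimidine run at the start had 21 of 24 below 0 for pentanoate against butyrate and a median of -0.19, and those without 35 of 39 and a median of -0.22. With CCGGAAG near the start 25 of 25 were below 0 (median -0.22), and without it 31 of 38 (median -0.17). Across the 83 genes, the change between the acids had a Spearman's rho of 0.11 with transcript length, -0.14 with GC content and 0.04 with the share of shared words, each as a description over genes measured in the same libraries.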

How the data were processed

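RNA-seq of 9 C2C12 libraries was used, 3 per group. The authors deposited raw counts per gene, with symbols, Ensembl identifiers and coordinates. The build was GRCm38 (mm10), per the submitters' processing notes. Per the labels' protocols, Trizol was used for RNA and a SMARTER kit for libraries. Aligner, counter and strand setting were not given in the sources used here. Reads of genes with near-identical copies are therefore uncertain.

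From the counts, edgeR 4.0.16 in R 4.3.3 was run on the 14066 genes passing filterByExpr, with TMM scaling and 1 fit of all 9 libraries by group, and tested by the quasi-likelihood test with Benjamini-Hochberg adjustment per comparison and a threshold of 0.05. Standard errors, approximate, were derived from the log2 change and the F value of its test. Tested on simulated counts for butyrate against control, the fit recovered 44% of genes changed 1.5-fold and 93% of those changed 2-fold. The simulated libraries had neither pairing by number nor a control that stood apart, and changes were planted only in genes above a minimum level. Smaller changes, such as the medians of the 83 genes, were not simulated. Both comparisons with control share the control libraries, and both with butyrate share the butyrate libraries. DESeq2 1.42.0, other scalings and filters, the groups compared alone, each library left out, and the replicate block were alternatives. Sums with rows of shared sequence, by 50-base words of GENCODE M21 transcripts, were chosen after seeing the data.

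Replicate numbers come from the labels. Deviations from group means correlated at 0.20 to 0.41 in the 9 same-numbered pairs of libraries and at -0.33 to 0.013 in the 18 others, above the criterion of 0.1 for every same-numbered pair, so they were taken to pair the libraries. The main fit, by group only, leaves this pairing out, and the fit with the replicate block takes it in.

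The genes, the 7 pathway lists and the cell marker lists were chosen with earlier results of these data known. Genes to name were those called, the 3 highest and 3 lowest changes per comparison, the 5 highest per kilobase, and a set fixed by role. Not all of these were described. Rpl3, Rpl39, Rps4x, Rps14 and Rps26, among others of the fixed set, have no values here. No change is given for Rpl28, Rps10, Rps18, Rpl26 and Rpl29, which were among the highest or lowest. Other genes described with values (Rps21, Rps24, Rpl4 and Rps27a among them) were chosen after their values were seen. The genes described singly are therefore not an even sample of the 83. 1 gene is counted in the summaries and not reported on its own here. Of the marker lists, differentiated muscle had 4 genes called lower for butyrate against control and 2 higher for pentanoate against butyrate; blood, epithelial, endothelial, neuronal, adipocyte, fibroblast and myoblast had 0 to 1 called genes per direction in each comparison.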

Additional observations from a re-analysis of the deposited data

Results flagged for a closer look

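Between the acids at the same dose and time, 2 of the 83 genes were called lower, both of the small subunit, against 1.61% of all genes tested. Rps12 differed by -0.52 on the log2 scale and Rps27 by -0.53, pentanoate over butyrate, with adjusted p-values of 0.0377 and 0.0374 by edgeR's quasi-likelihood test. Leaving out any butyrate library, or pentanoate 1 or 2, ended both calls, and leaving out pentanoate 3 ended that of Rps27. Summed with its copies, Rps12 differed by -0.47 (adjusted p = 0.0235), and Rps27 differed by -0.32 and was no longer called (adjusted p = 0.0872). All 3 pentanoate libraries lay below all 3 butyrate libraries in both genes. These calls come from the fit by group, which leaves out the pairing by replicate number. With the replicate block the adjusted p was 0.0115 for Rps12 and 0.0161 for Rps27 by edgeR's quasi-likelihood test. That fit called 11 of the 83 genes lower, against 4.42% of all genes tested.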

How the results depend on the processing

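Over the ribosomal protein genes described, 533 of 629 alternative values kept direction and side of the threshold, 80 passed it newly, 16 no longer passed it and 0 reversed. Over the called genes of the pathway and marker lists named with changes, 121 of 161 kept both, 40 no longer passed and 0 reversed. For butyrate against control, the count called higher was 1 and became 4 with DESeq2, 2 with library totals, 2 with upper-quartile scaling, 7 with the replicate block, 0 summed with copies, 9 summed with the block, 0 summed without control 3, and 0 to 5 when single libraries were left out. Over all genes tested, the share called higher was 6.43%, and 8.05% with DESeq2, 7.13% with library totals and 7.54% with upper-quartile scaling. It was 10.8% with the block, 6.65% summed with copies, 11.3% summed with the block and 8.74% summed without control 3. With single libraries left out it ran from 3.78% to 8.64%. For pentanoate against control, the count called lower was 0 and became 4 with DESeq2, 2 without a filter, 3 with the replicate block, 3 summed with the block, and 0 to 1 when single libraries were left out. The share of all genes called lower was 0.0213%, and 0.37% with DESeq2, 0.0868% without a filter and 0.647% with the block. Summed with the block it was 0.753%, and with single libraries left out it ran from 0.00697% to 0.0278%. For pentanoate against butyrate, the count called lower was 2 and became 8 with DESeq2, 3 without a filter, 4 with upper-quartile scaling, 17 with these groups alone, 11 with the replicate block, 1 summed with copies, 17 summed with the block, 21 summed without control 3, and 0 to 19 when single libraries were left out. Here the share of all genes called lower was 1.61%, and 3.04% with DESeq2, 1.14% without a filter and 1.91% with upper-quartile scaling. It was 4.34% with these groups alone, 4.42% with the block and 1.78% summed with copies. Summed with the block it was 5.18%, and summed without control 3 it was 4.65%. With single libraries left out this share ran from 0.223% to 4.56%. The median change of pentanoate against control was -0.0299, 0.0469 without control 2 and 0.00337 without pentanoate 1, and ran from -0.0981 to 0.0469 over the omitted libraries. The ratio of summed shares for that comparison was 0.980 and ran from 0.939 (without control 3) to 1.01 (without control 2). The cause of these shifts was not tested. Among the ribosomal protein genes the block changed no calls beyond those in these counts, and the named list genes were all called with it. The fewest counts on their own rows were those of Rpl29, Rpl36al, Rpl24 and Rpl26, with 144 to 556 counts over 9 libraries. Rpl26, Rpl29 and Rpl24 held 0.82%, 1.32% and 29.7% of their sums with copies. Their own rows therefore do not give the level of their sequence.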
